A study of Mus musculus with 3 samples.

Results

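Papillomas of mice without galectin-7 (Lgals7-/-) were set against papillomas of wild-type mice, with 1 pooled library on each side, 2 of the 3 libraries of the series. Papillomas are benign tumours of the epidermis. They were raised in C57BL/6 mice by 2-stage carcinogenesis, in which the mutagen DMBA is followed by the promoting agent TPA, so all groups carry the same tumour treatment. RNA from 3 tumours was pooled into each library. The third library came from Tg46 mice, which overexpress galectin-7 in keratinocytes. It takes no part in the comparison, and its counts are given beside the others. A gene was compared where at least 10 reads were counted in at least 1 of the 2 libraries, which left 11176 of 24028 genes. The age of the mice and the way the null allele was made were not stated in the labels.

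Galectin-7 is a lectin that binds beta-galactosides and is made mainly by stratified epithelia. In the epidermis, keratinocytes leave the basal layer, change from Krt5 and Krt14 to Krt1 and Krt10, and end by crosslinking proteins such as involucrin, repetin, loricrin and the small proline-rich proteins into the cornified envelope. Type I interferons, a branch of innate immunity, signal through factors that include Stat2 and Irf9, which bind the interferon-stimulated response element (ISRE) in the promoters of their target genes.

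The deposited counts totalled 172011 (wild-type), 312600 (Lgals7-/-) and 354499 (Tg46), which is shallow for a transcriptome, and 5541 genes reached 10 counts in wild-type against 10041 in Lgals7-/-. Lgals7 itself (chromosome 7, 28863853 to 28866284, plus strand, mm10) was represented by 0 counts in the wild-type library, 2 in Lgals7-/- and 4 in Tg46. No fold is given at this depth, and the targeted gene neither bears out the genotype labels nor goes against them. A count of 0 allows a level of up to 18.2 CPM (counts scaled to a common library size) in wild-type and 9.21 CPM in Lgals7-/-, the level of 3 counts. The 95% intervals below are exact Clopper-Pearson intervals of the pair of counts. They and the floors cover counting error alone, because PCR copies of a molecule were not separated by identifiers. The 19 transcripts of the list expected in every cell summed to 77 counts (466 CPM) in wild-type, beside 18440 CPM for 1492 chemosensory receptor genes. Whether the table holds all mapped reads is unknown, so levels and folds below are those of the counts listed. With 1 library per genotype there is no replicate check and no p-value, and every difference is between 2 libraries.

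Among the genes compared, 1579 (14.1%) were called higher in Lgals7-/- and 1762 (15.8%) lower. A call needs a ratio of at least 2-fold, with 0.5 counts added to each library, and an interval that leaves out 1. The median log2 ratio was 0.07. The filter itself favours calls, because a gene can pass it through the library in which it is high: 627 of the genes called higher held 0 counts in wild-type, and the genes called lower had a median of 9 counts in Lgals7-/- and 16 in wild-type. Among 9928 genes chosen instead by 10 counts in Tg46, 1091 (11%) were called higher and 1080 (10.9%) lower. The split between directions depends on the scaling. It was 2161 higher and 1375 lower with upper-quartile factors, which move every log2 ratio up by 0.24, and 2068 higher and 1420 lower with TMM factors (trimmed mean of M-values) computed before the filter, which move it up by 0.19. Total counts move it up by 0.12. The 19 transcripts used as universal references summed to 77 counts and 160, a ratio of 1.05 (0.798 to 1.40).

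**Figure D1:**
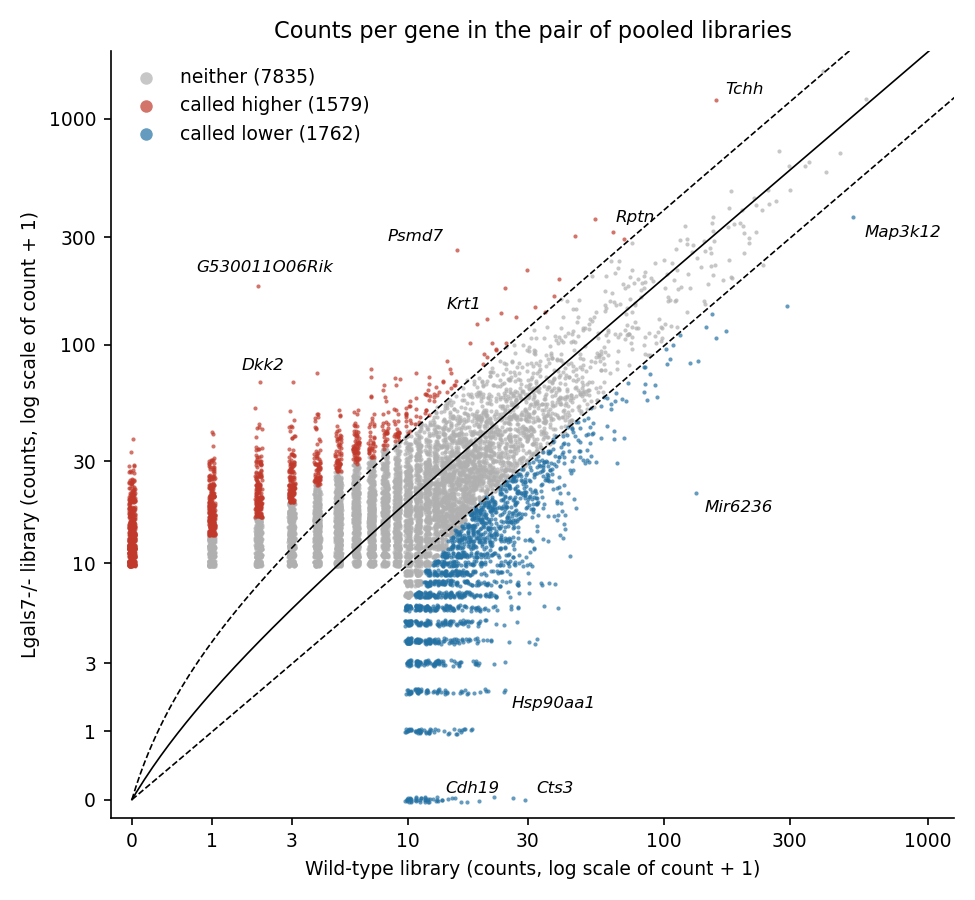
Counts per gene in the wild-type library (horizontal axis) and the Lgals7-/- library (vertical axis), both on a log scale of the count plus 1, for the 11176 genes compared, with a small random offset so that points do not cover each other. The solid line is equal level after scaling and the dashed lines are 2-fold differences; the 1579 genes called higher are red, the 1762 called lower are blue, and most called genes lie at low counts, with Tchh, Psmd7 and Rptn among the exceptions above the lines and Mir6236 below.

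Few genes were well counted. Of 220 genes with 100 counts or more in either library, 20 (9.09%) were called higher and 14 (6.36%) lower. Over all genes compared these shares were 14.1% and 15.8%. Psmd7, a lid subunit of the 26S proteasome (chromosome 8, 107580381 to 107588464, minus strand, mm10), held 16 counts in the wild-type library, 266 in Lgals7-/- and 308 in Tg46. It was 8.19-fold higher in Lgals7-/- than in wild-type (95% interval 5.10 to 15.0). Dkk2, a secreted modulator of Wnt signalling, held 2, 68 and 64 counts in the same order, a 13.9-fold difference between the pair compared (4.59 to 145). In both genes the wild-type library was the low one and the other pair lay close together in counts.

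Several of the genes highest in Lgals7-/- were not counted at all in wild-type, so their folds are lower bounds against 3 counts. The bound treats the count on the other side as exact, so it is not the lower end of the exact counting interval. That interval starts lower for each fold given here and below as at least a value. It starts at 4.84-fold for Ripor2, 4.29-fold for Mrpl1 and 3.74-fold for Ccdc80. Ripor2 was at least 6.25-fold higher (37 counts in Lgals7-/- and 25 in Tg46), Mrpl1, a mitochondrial ribosomal protein gene, at least 5.58-fold higher (33 and 22) and Ccdc80, which encodes a secreted matrix protein, at least 4.90-fold higher (29 and 47). Galnt15, a glycosyltransferase that starts mucin-type O-glycans, was also at least 4.90-fold higher, with 29 counts in Lgals7-/- and 7 in Tg46. Bend3 and Fam53b were both at least 4.73-fold higher. Nlgn2, a synaptic adhesion molecule, was 10.8-fold higher with 2 counts in wild-type and 53 in Lgals7-/- (3.54 to 114), and Abca7, a lipid transporter, was 14.0-fold higher from 1 count and 41 (3.53 to 841). Arhgap20 (3 and 68 counts) and Glb1l (4 and 76 counts) complete the 12 genes with the interval farthest above 1. Their exons overlap those of Arhgap20os and Ankzf1 on the other strand. The sources used here do not say whether the counting used strand, so the reads of such pairs cannot be told apart.

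Of the 12 genes lowest in Lgals7-/-, 10 had no count there. Cts3, a cathepsin gene best known from placenta, held 30 counts in the wild-type library, 0 in Lgals7-/- and 2 in Tg46. Against 3 counts it was at least 19.7-fold lower with the 30 counts taken as exact, and its exact interval starts at 15.1-fold. Cdh19, a cadherin of Schwann cell precursors, followed with 26, 0 and 3 counts, at least 17.1-fold lower (interval from 12.9). Mettl18, a protein histidine methyltransferase, was at least 14.5-fold lower (22, 0 and 1 counts, interval from 10.8). Timm8a1, of the mitochondrial intermembrane space, was at least 11.2-fold lower (17, 0 and 0 counts, interval from 8.14). In these 4 genes the Tg46 library was also at 3 counts or fewer. Efemp1, an extracellular matrix glycoprotein, Csrp3, a muscle LIM protein, Panx1, a channel protein, Tafa1, Triml2 and the long non-coding RNA gene Mir100hg, which overlaps Gm48740 and Gm48742, held 13 to 16 counts in wild-type and 0 in Lgals7-/-. Hsp90aa1, the stress-inducible cytosolic Hsp90, held 24 counts in the wild-type library, 2 in Lgals7-/- and 7 in Tg46, 19.3-fold lower in Lgals7-/- (5.88 to 207).

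The best-counted gene of that group was Mir6236, a microRNA locus of chromosome 9, with 130 counts in the wild-type library, 21 in Lgals7-/- and 31 in Tg46. It was 11.97-fold lower in Lgals7-/- (7.66 to 20.4), and wild-type again stood apart from the other pair. These are reads over the locus in a library of long RNA and do not measure the mature microRNA. Its mature sequence in RefSeq (GRCm38.p6, chr9:110281353-110281371, plus strand) is shown because it identifies the locus, with the seed, bases 2 to 8, in capitals.
mmu-miR-6236: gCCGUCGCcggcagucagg

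Other genes with 100 counts or more are given here as examples chosen after their values were seen. Luc7l3, a splicing factor gene, held 29 counts in the wild-type library, 221 in Lgals7-/- and 158 in Tg46 and was 3.81-fold higher in Lgals7-/- (2.62 to 5.90). Wee1, the kinase that holds cells before mitosis, was 3.65-fold higher (25, 183 and 203 counts). Top1, topoisomerase I, was 2.50-fold higher (27, 135 and 140). The nuclear long non-coding RNA gene Malat1 was 2.45-fold higher, with 40, 195 and 123 counts, and overlaps Gm37376. In the other direction, 8 of the 14 well-counted genes called lower have exons across an exon on the other strand. The share among all genes with 100 counts or more is not given, so these 8 are a description only. At any count, 424 of the 1762 genes called lower and 3466 of the 11176 compared have such an exon. Over all genes compared, genes with such an exon were called lower less often (12.2%) than genes with no opposite-strand exon (17.1%). Map3k12, with 535 counts in the wild-type library, 365 in Lgals7-/- and 735 in Tg46, was 2.89-fold lower (2.53 to 3.31) and lies across Pcbp2, Map3k15 (161, 109 and 508 counts) lies across Pdha1, and Srpk2 (171, 112 and 196 counts) across Kmt2e.

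Genes of the cornified envelope and late differentiation stood higher in Lgals7-/-. All 57 measured members together held 336 counts in the wild-type library, 1148 in Lgals7-/- and 1611 in Tg46, which is 2035 CPM in wild-type against 3525 CPM in Lgals7-/-, a ratio of 1.73 (1.53 to 1.96). This sum uses every member, whether or not it passed the filter. Relative to library totals (354499 in Tg46 and 172011 in wild-type), the Tg46 sum stood above wild-type as well. Of the 21 members that passed, 6 were called higher (28.6%, against 14.1% of all genes) and 2 lower (9.52%, against 15.8%). Their median log2 ratio was 1.12 against 0.07 over all genes compared. Of 22 chosen by their counts in Tg46, 6 were called higher and 2 lower, where the shares over all genes so chosen were 11% and 10.9%. Rptn, repetin, gave 27.4% of the Lgals7-/- sum, and without it the ratio of the other members was 1.55.

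Rptn (chromosome 3, 93393699 to 93399442, plus strand, mm10) gave 63 counts in the wild-type library, 314 in Lgals7-/- and 533 in Tg46 and was 2.51-fold higher in Lgals7-/- (1.92 to 3.37). Tchhl1, a relative of trichohyalin, held 4, 43 and 15 counts and was 4.90-fold higher (1.98 to 20.9). Csta1, a stefin that inhibits cysteine proteases, was 3.73-fold higher with 8, 62 and 150 counts, and Sbsn, suprabasin, 3.37-fold higher with 5, 36 and 61. Lce1a1, a late cornified envelope gene, had no count in wild-type and 13 in Lgals7-/-, at least 2.20-fold higher against 3 counts (interval from 1.545). Ppl, periplakin, an envelope scaffold, was called higher with 11 counts in wild-type and 59 in Lgals7-/-. Dmkn, dermokine, held 66, 230 and 290 counts and stayed under the 2-fold limit at 1.76-fold (1.34 to 2.36), as did Ivl, involucrin, with 23, 83 and 63. In the small proline-rich family, Sprr1a, with 16, 4 and 2 counts, was 7.23-fold lower (2.54 to 32.4) and Sprr2k, with 13, 9 and 55, was 2.80-fold lower (1.13 to 7.55). The other listed members of that family held at most 8 counts in either of the 2 libraries and were not compared, among them Sprr2i and Sprr3, each with 0 in wild-type and 8 in Lgals7-/-, and Sprr2a1 with 7 and 2. Lor, loricrin, a major envelope protein, held only 8, 5 and 7 counts and did not pass the filter.

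Envelope genes called in either direction include promoters with the binding motif of AP-1, the Fos and Jun factor that TPA activates. In RefSeq windows of 250 bases before to 50 after the transcript start (GRCm38.p6), TGANTCA was found on either strand in 17 of the 49 members with a window (34.7%), against 8.97% of 27025 genes. Of the 8 such members compared, 3 were called higher and 2 lower. The members with the motif had a summed ratio of 1.82 (1.56 to 2.13) and those without it 1.37 (1.07 to 1.76), and the intervals overlap. Without Rptn the members with the motif had a ratio of 1.53 (1.27 to 1.85). Over the 8764 genes compared that have a window, 12.8% of those with the motif were called higher and 16% lower, against 14.1% and 15.7% of those without. The windows of the 5 called members with a match before the start are shown, up to 40 bases on each side of the match nearest the 5′ end, because they hold the same motif beside opposite differences; capitals mark each match. Rptn, Tchhl1 and Sbsn were called higher, and Sprr1a and Sprr2k lower. The windows of the lower pair hold 2 matches each. A match is a description of the letters and not evidence of binding.
Rptn, chr3:93393563-93393649, plus strand: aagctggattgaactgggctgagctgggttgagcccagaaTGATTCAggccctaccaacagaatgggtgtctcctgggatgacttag
Tchhl1, chr3:93468627-93468713, plus strand: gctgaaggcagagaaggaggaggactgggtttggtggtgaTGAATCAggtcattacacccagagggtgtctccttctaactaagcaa
Sbsn, chr7:30751312-30751398, plus strand: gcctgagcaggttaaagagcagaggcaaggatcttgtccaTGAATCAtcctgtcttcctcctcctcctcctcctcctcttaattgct
Sprr1a, chr3:92485981-92486067, minus strand: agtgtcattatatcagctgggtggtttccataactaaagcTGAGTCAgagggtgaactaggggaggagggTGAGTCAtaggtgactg
Sprr2k, chr3:92432346-92432432, plus strand: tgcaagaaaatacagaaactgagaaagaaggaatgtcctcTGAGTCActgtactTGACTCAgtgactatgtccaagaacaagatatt

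Epidermal keratins also stood higher as a sum. The 21 keratins held 170 counts in the wild-type library, 550 in Lgals7-/- and 747 in Tg46, a ratio of 1.64 in Lgals7-/- over wild-type (1.38 to 1.96). Relative to library totals, the Tg46 sum also stood above wild-type. Of 14 compared, 6 were called higher (42.9%, against 14.1% of all genes) and 3 lower (21.4%, against 15.8%). Krt1, the suprabasal type II keratin, held 21, 132 and 156 counts and was 3.13-fold higher (2.001 to 5.32), while its partner Krt10 held 25, 96 and 111 and was 1.92-fold higher (1.24 to 3.16), short of a call. The basal keratin Krt14 was called higher with 20, 81 and 95 counts, and its partner Krt5, with 7, 20 and 32, was not. Krt6a (6, 35 and 95 counts), Krt16 (9, 50 and 50) and Krt17 (1, 16 and 17), which keratinocytes make in wounds and hyperproliferation, were called higher, at 2.77-fold, 2.70-fold and 5.58-fold. Krt6a overlaps Gm49428 and Gm44342. Krt78 was 8.28-fold higher with 1 count in wild-type and 24 in Lgals7-/-. The keratins called lower were Krt76 (19, 5 and 15 counts, 6.99-fold, overlapping Gm44356) and Krt4 (11, 4 and 8, 5.04-fold), both of oral type epithelia, and Krt2 (16, 14 and 19, 2.24-fold), of the upper epidermis.

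The 4 suprabasal markers in the table (Krt1, Krt10, Ivl and Lor) summed to 77 counts in wild-type and 316 in Lgals7-/-, a ratio of 2.08 (1.62 to 2.71), and the 7 basal markers to 104 and 256, a ratio of 1.25 (0.990 to 1.58). In bulk tumour RNA, fewer cells of a type and less RNA per cell cannot be told apart. The 33 hair follicle and hair keratin genes had a ratio of 2.24 (2 to 2.51), but Tchh, trichohyalin of the inner root sheath, gave 71.2% of the Lgals7-/- sum. Tchh held 160 counts in the wild-type library, 1202 in Lgals7-/- and 209 in Tg46, 3.80-fold higher in Lgals7-/- (3.23 to 4.52), and without it the ratio was 1.11 (0.943 to 1.303). Krt71 (1, 18 and 9 counts) and Krt25 (2, 23 and 5), also of the inner root sheath, and the hair keratin Krt36 (11, 46 and 13) were called higher. Krt74 (14, 2 and 1) and the homeobox gene Msx2 (21, 7 and 9) were called lower. The stress keratin, alarmin and antimicrobial genes had a ratio of 1.42 (1.10 to 1.85), from Krt6a, Krt16 and Krt17 as its called members, and without Krt16 the ratio was 1.25 with an interval that held 1.

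In the junctions and barrier, differences were smaller. The 45 genes of barrier lipids, crosslinking and desquamation had a summed ratio of 1.15 (1.01 to 1.32). Of 32 compared, 5 were called higher (15.6%, against 14.1% of all genes) and 1 lower (3.12%, against 15.8%). The interval of the summed ratio held 1 without Spink5 (1.07) and with DESeq2 size factors (1.14). Spink5, the inhibitor of epidermal kallikreins, was 2.99-fold higher with 14, 85 and 135 counts. The hemidesmosome and basement membrane list had a ratio of 1.26 (1.09 to 1.47), or 1.11 (0.954 to 1.29) with libraries scaled within GC classes: Col17a1, the hemidesmosomal collagen (16, 67 and 64 counts), was called higher and Itga6, integrin alpha-6 (30, 24 and 37), lower. In the desmosome, adherens and tight junction list the ratio was 0.957 (0.841 to 1.09), and it was 0.789 (0.682 to 0.914) without Dsp, desmoplakin, which held 54, 203 and 274 counts. Of its 23 members compared, Pkp1, plakophilin 1 (31, 19 and 21), Dsg4 (49, 36 and 17), Cgn (24, 13 and 36) and Cldn12 (14, 4 and 4) were called lower and Dsg3 (1, 15 and 20) and Pkp2 (6, 34 and 10) higher. The share called lower was 17.4%, near the 15.8% of all genes, and the share called higher 8.7%, against 14.1%.

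**Figure D2:**
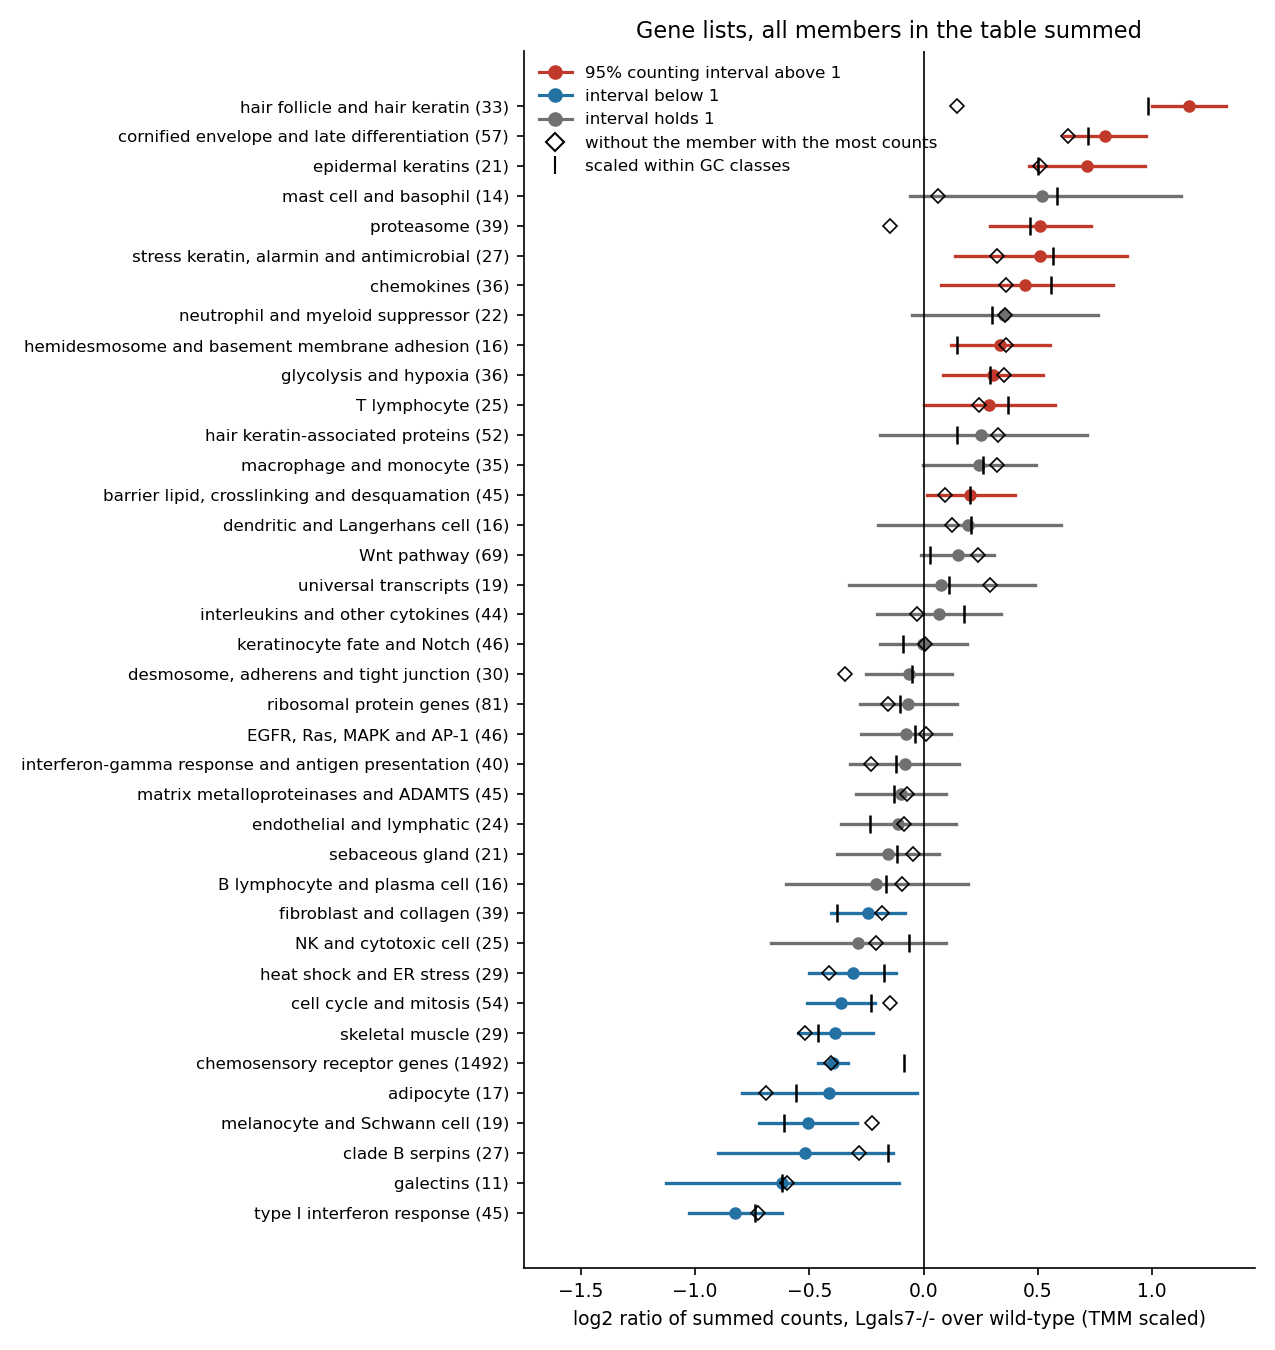
Log2 ratio of summed counts in Lgals7-/- over wild-type for 38 gene lists, with the number of members in the table in brackets; points are the ratios, bars the exact 95% counting intervals, diamonds the ratio without the member with the most counts and ticks the ratio with libraries scaled within classes of transcript GC content. The interval lies above 1 for 10 lists, led by hair follicle genes (2.24, or 1.11 without Tchh) and the cornified envelope (1.73), below 1 for 10, of which type I interferon genes are lowest (0.565), and holds 1 for 18.

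Genes of the type I interferon response stood lower in Lgals7-/-. The 45 members summed to 377 counts in the wild-type library, 420 in Lgals7-/- and 396 in Tg46, or 2283 CPM in wild-type against 1290 CPM in Lgals7-/-, a ratio of 0.565 (0.490 to 0.651). Library totals were 354499 in Tg46 and 172011 in wild-type. Relative to them, the Tg46 sum stood below wild-type as well. Of 24 compared, 10 were called lower (41.7%, against 15.8% of all genes) and 3 higher (12.5%, against 14.1%), with a median log2 ratio of -1.08. Of 17 chosen by their counts in Tg46, 6 were called lower and 2 higher, where the shares over all genes so chosen were 10.9% and 11%. The sum was not carried by its largest member: without Ddx58 the ratio was 0.605, and over members with no opposite-strand exon it was 0.562.

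The members called lower include sensors of viral RNA, a signalling factor and antiviral effectors. Ddx58, the RNA sensor RIG-I, held 41 counts in the wild-type library, 19 in Lgals7-/- and 36 in Tg46 and was 4.20-fold lower (2.42 to 7.76). Dhx58, the related sensor LGP2, held 14, 6 and 13 and was 4.40-fold lower (1.66 to 14.6), with an overlap with Dhx58os. Ifih1, the sensor MDA5, held 12, 11 and 14 and was not called. Stat2, the signal transducer specific to type I and III interferons, was called lower with 21, 12 and 18 counts. Among effectors, Ifit1, which binds foreign RNA ends, held 12, 5 and 8 counts and was 4.48-fold lower (1.55 to 17.1), and Mx1, a dynamin-like antiviral GTPase, held 21, 15 and 10. Parp14 (32, 22 and 23 counts, 2.85-fold), Herc6, a ligase for the ubiquitin-like protein Isg15 (17, 9 and 7), Ifi27l2a (15, 8 and 5), Ifi203 (13, 9 and 18) and Oasl1 (10, 3 and 2, overlapping Gm13822) were the others called lower. Against them, Mx2 held 0, 20 and 2 counts and was at least 3.38-fold higher against 3 counts (interval from 2.50). Irf7, the regulator that amplifies interferon production, held 1, 19 and 10 and was 6.59-fold higher (1.53 to 400.3). The exons of Irf7 overlap Phrf1. Tor3a held 4, 32 and 33 and was also called higher. Isg15 itself had no count in any of the 3 libraries, and its level is unknown under 18.2 CPM in wild-type.

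**Figure D3:**
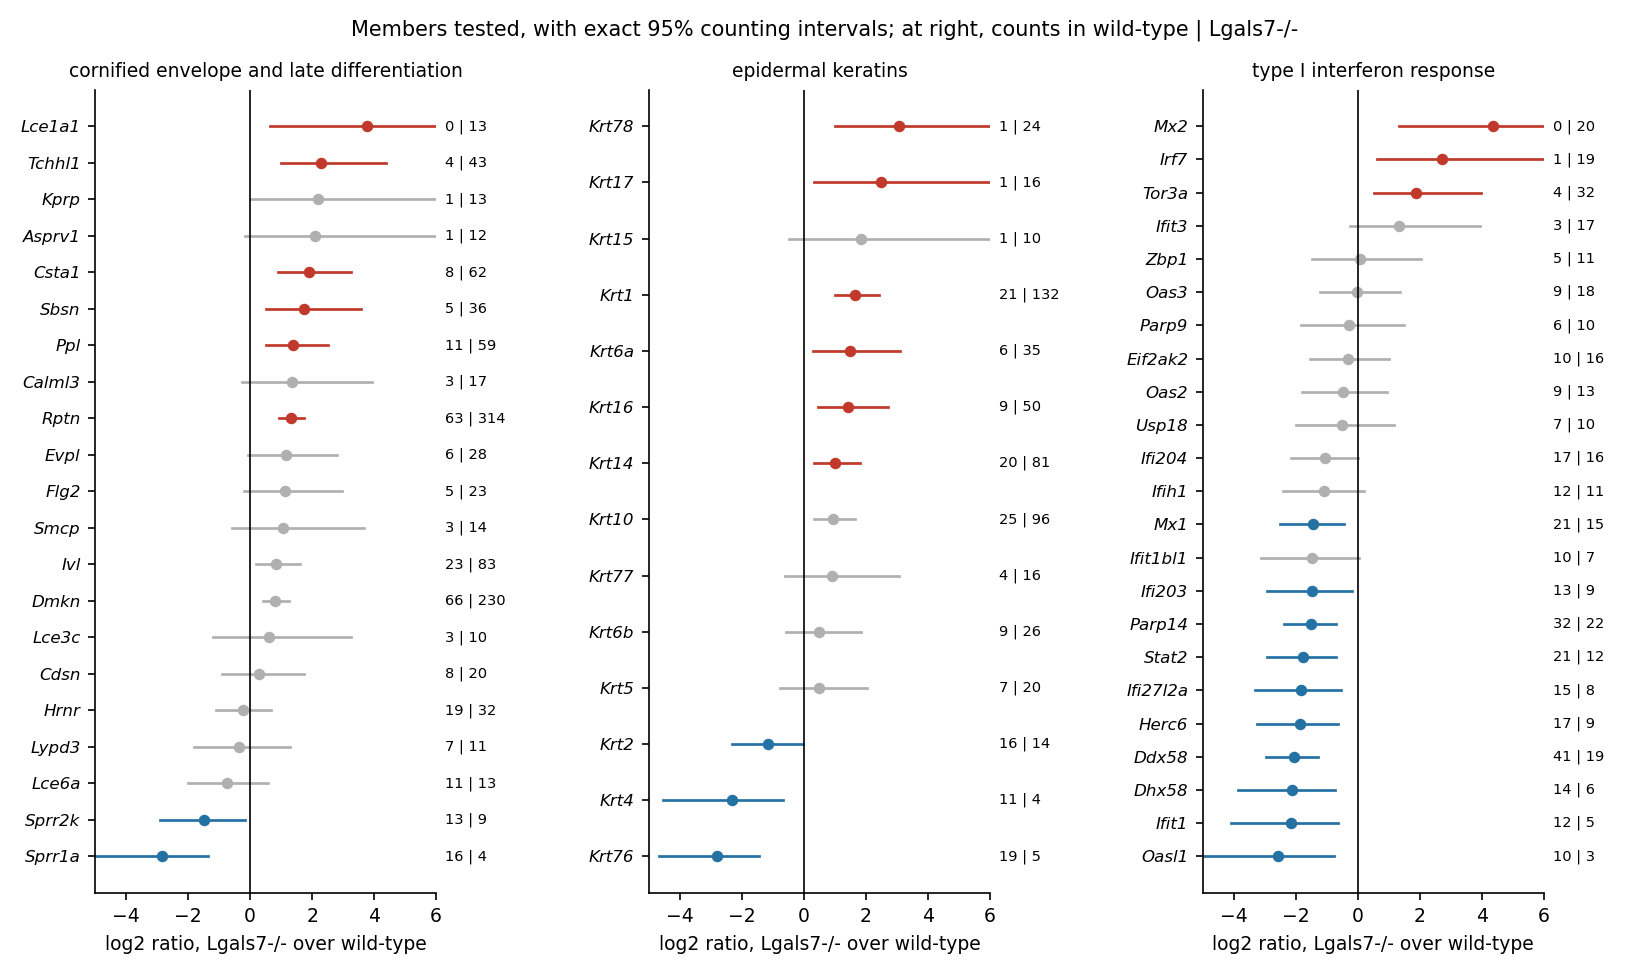
Log2 ratio in Lgals7-/- over wild-type for members compared of 3 gene lists, with exact 95% counting intervals drawn to the axis limits; red points were called higher, blue lower and grey neither, and the pairs of numbers are counts in wild-type and Lgals7-/-. Most cornified envelope genes lie above 0, with Sprr1a and Sprr2k called lower, and most type I interferon genes lie below 0, with Mx2, Irf7 and Tor3a above.

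The ISRE, searched as GAAANNGAAA on both strands, was found in the RefSeq windows of 18 of the 31 type I interferon members with a window (58.1%), against 3.99% of 27025 genes. Members with it summed to 153 counts in wild-type and 143 in Lgals7-/-, a ratio of 0.474 (0.375 to 0.599). Members without it summed to 81 and 89, a ratio of 0.557 (0.408 to 0.762), and the intervals overlap. Of the 9 members with the motif that were compared, 4 were called lower and 0 higher. Over the 8764 genes compared that have a window, 20.4% of the 309 with the motif were called lower and 11.3% higher; without it these shares were 15.6% and 14.1%. The windows of Ifit1, Stat2 and Ifi203 are shown because these called members hold a match before the transcript start. Ifit1 has 2 matches.
Ifit1, chr19:34640745-34640834, plus strand: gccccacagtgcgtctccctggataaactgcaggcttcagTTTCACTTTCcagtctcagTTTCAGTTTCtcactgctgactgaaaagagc
Stat2, chr10:128270248-128270325, plus strand: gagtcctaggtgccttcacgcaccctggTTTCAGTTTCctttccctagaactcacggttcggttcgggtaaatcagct
Ifi203, chr1:173942493-173942567, minus strand: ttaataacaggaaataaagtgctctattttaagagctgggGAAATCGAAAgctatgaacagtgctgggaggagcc

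The interval of summed interferon-gamma response and antigen presentation genes held 1 (ratio 0.944, 0.8005 to 1.11). Of 21 compared, 6 were called lower (28.6%, against 15.8% of all genes) and 2 higher (9.52%, against 14.1%). Ido1, which degrades tryptophan (13, 5 and 9 counts), the GTPases Irgm1 (11, 5 and 8), Gbp6 (10, 5 and 3) and Gbp4 (14, 9 and 12) were among those called lower. Tapbp, tapasin of the peptide-loading complex, was 3.94-fold higher (6, 50 and 54 counts, overlapping Gm19412) and Nlrc5, the activator of MHC class I genes, 2.54-fold higher (6, 32 and 25, overlapping 9330175E14Rik). Over members with no opposite-strand exon the ratio was 0.768 (0.626 to 0.9449).

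Immune cell lists were thinly counted. Macrophage and monocyte genes had a ratio of 1.18 (0.998 to 1.41). Of 19 compared, 4 were called higher (21.1%, against 14.1% of all genes), among them Lyz2, the myeloid lysozyme (5, 39 and 6 counts), and Cd80, a T cell costimulator (0, 15 and 12). Chil3, a chitinase-like protein of alternatively activated macrophages (12, 2 and 2), was called lower (5.26% of the list, against 15.8% of all genes). The 6 defining macrophage markers, however, summed to 25 counts in wild-type and 51 in Lgals7-/-, a ratio of 1.03 (0.629 to 1.74). Chemokine genes had a ratio of 1.36 (1.05 to 1.78), and Ccl22, Cxcl14 and Ccl3 were each at 0 counts in wild-type and held 15, 14 and 12 in Lgals7-/- and 7, 5 and 1 in Tg46. Without the member with the most counts the chemokine ratio was 1.28 (0.980 to 1.69), and 0 of the 3 chemokine genes with 10 counts in Tg46 were called. T lymphocyte genes had a ratio of 1.22, whose interval just left out 1 (1 to 1.49). Cd4 (0, 18 and 22 counts), the transcription factor Gata3 (2, 25 and 27, overlapping Gm13256) and the inhibitory receptor Pdcd1 (0, 10 and 1) were called higher, and Il2ra (19, 15 and 11) lower, while the 3 Cd3 chains in the table summed to 14 and 15 counts, a ratio of 0.543 (0.245 to 1.21). NK and cytotoxic genes had a ratio of 0.820 (0.630 to 1.07) although the 8 that passed the filter had a median log2 ratio of 0.99; Klrb1c (2, 19 and 2 counts) was called higher and Klra3 (13, 2 and 1) lower. The 5 defining NK markers, Klrb1c among them, summed to 13 and 47 counts, a ratio of 1.83 (0.976 to 3.69). B lymphocyte and plasma cell genes had a ratio of 0.867 (0.660 to 1.14), with Ms4a1, the CD20 gene, at 8, 0 and 3 counts and Cd79a, of the B cell receptor, at 9, 4 and 9. The neutrophil and myeloid suppressor list had a ratio of 1.27 (0.965 to 1.70). The neutrophil markers summed to 12 and 45 (ratio 1.90, 0.989 to 3.95). The G-CSF receptor gene Csf3r (0 in wild-type and 16 in Lgals7-/-) and Ngp (3 and 18) were on the higher side. Cxcr2 (2 and 1) and Ltf (7 and 10) were on the lower side after scaling.

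Among stromal genes, fibroblast and collagen members had a ratio of 0.844 (0.754 to 0.946), and a ratio of 0.999 with upper-quartile factors. Of 29 compared, 7 were called lower (24.1%, against 15.8% of all genes) and 3 higher (10.3%, against 14.1%). Col11a1, a fibrillar collagen chain, held 42, 13 and 9 counts and was 6.21-fold lower (3.36 to 12.9), and Col6a1 (27, 15 and 22), Col12a1 (44, 41 and 42) and Postn, periostin (11, 5 and 11), were also called lower. Pdgfra, the receptor that marks fibroblasts, was 4.97-fold higher (2, 24 and 25, overlapping Gm42802 and Gm42803) and Col5a3 3.09-fold higher (5, 33 and 44). The 5 defining fibroblast markers summed to 63 and 124 counts, with an interval that held 1 (ratio 0.998, 0.731 to 1.37). The melanocyte markers Dct, Tyr and Pmel had a ratio of 0.657 (0.547 to 0.790), of which Pmel, across from Cdk2 and Dgka, gave 207 of 210 counts in wild-type. Dct (2, 8 and 8 counts) and Tyr (1, 7 and 8) went the other way, so the ratio is that of Pmel. In the matrix metalloproteinase and ADAMTS list (ratio 0.933, 0.815 to 1.07), Mmp28 (0, 18 and 5 counts, overlapping 1700020L24Rik), Mmp25 (0, 18 and 23) and Mmp10, a stromelysin (0, 10 and 9), were called higher and the collagenase Mmp1a (17, 2 and 5) and the aggrecanase Adamts5 (16, 5 and 8) lower.

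In signalling and growth lists, calls went both ways. Of 39 Wnt pathway genes compared, 15.4% were called higher and 12.8% lower, near the shares over all genes (14.1% and 15.8%). The 6 called higher include the ligand genes Wnt2 (0, 13 and 4 counts) and Wnt3a (0, 11 and 3) and Rspo3 (0, 13 and 4, overlapping Gm48159), an R-spondin that enhances Wnt signalling, beside Dkk2. The 5 called lower include the coreceptor Lrp6 (37, 26 and 32 counts), the receptor-degrading ligase Rnf43 (22, 9 and 15) and the receptor kinases Ror1 and Ror2. Cell cycle and mitosis genes had a ratio of 0.779 (0.702 to 0.864), in which Ccne2, cyclin E2, across from Ints8, gave 21.8% of the wild-type sum with 132, 86 and 214 counts; without it the ratio was 0.904, and with upper-quartile factors it was 0.922; both intervals held 1. The spindle checkpoint kinase gene Bub1b (25, 4 and 15 counts) was 11.2-fold lower (4.26 to 48.7) and the mitotic kinesin Kif11 (26, 10 and 10) 4.98-fold lower, whereas Aurka (3, 32 and 33), Tpx2 (3, 22 and 11) and Ccnd3 (2, 31 and 23, overlapping Bysl) were called higher. In the EGFR, Ras, MAPK and AP-1 list (ratio 0.948, 0.828 to 1.09), the EGFR ligand Btc, betacellulin (13, 3 and 5), Prkcd, a protein kinase C that TPA binds (21, 16 and 21), and Braf (38, 37 and 60, overlapping Ndufb2) were among those called lower and Prkca (6, 32 and 24, overlapping Apoh) higher.

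Glycolysis and hypoxia genes had a ratio of 1.23 (1.06 to 1.44), or 1.14 (0.937 to 1.39) over members without an opposite-strand exon: Pfkm (2, 38 and 19 counts, overlapping Senp1) and Pfkl (3, 27 and 17), the phosphofructokinases of muscle and liver type, and Pkm, pyruvate kinase (0, 14 and 16), were called higher, and Gpi1, the glucose transporter gene Slc2a3 and the carbonic anhydrase gene Car12 lower. Proteasome genes had a ratio of 1.42 (1.22 to 1.66) that rested on Psmd7, which gave 40.9% of the Lgals7-/- sum. Without Psmd7 the ratio was 0.904, the median log2 ratio of the 16 compared was -0.17, and the core subunit genes Psma5, Psma7 and Psmb7 were called lower while Psmd1, Psmc1 and Psme4 were called higher. Heat shock and ER stress genes had a ratio of 0.806 (0.707 to 0.920), or 0.954 with upper-quartile factors, an interval that held 1, with Hsp90aa1, Atf6 (30, 13 and 12 counts), Dnajc3 and Hsph1 called lower and Hspa5, the ER chaperone BiP (1, 21 and 16), higher.

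Among the 11 galectin genes in the table, which summed to 60 counts in the wild-type library, 77 in Lgals7-/- and 105 in Tg46 (ratio 0.651, 0.458 to 0.928; 0.770 with upper-quartile factors, an interval that held 1), Lgals9 was the member that differed most. Lgals9, a tandem-repeat galectin that acts on T cells, held 17 counts in the wild-type library, 1 in Lgals7-/- and 7 in Tg46 and was 23.01-fold lower in Lgals7-/- (5.25 to 1401). Without Lgals9, left out after its value was seen, the galectin ratio was 0.896 (0.609 to 1.34). Lgals8 (14, 17 and 21 counts) and Lgals3 (7, 4 and 8) were not called, and Lgals1 held at most 2 counts in any library.

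The direction of a call moved with the base composition of the gene. The genes compared were divided into 5 classes of equal size by the GC content of the longest transcript. From the lowest class to the highest, the share called lower fell from 28.1% to 6.85%, the share called higher went from 9.5% to 20.4%, and the median log2 ratio went from -0.42 to 0.49. The genes chosen by their counts in Tg46 showed the same order, with 18.6% to 4.93% called lower. Median GC content was 53.0% in the cornified envelope genes compared, 54.6% in the epidermal keratins and 47.5% in the type I interferon genes, against 49.4% in all genes. With the libraries scaled within 5 classes formed on the genes chosen by their counts in Tg46, whose sizes are unequal over the genes compared, an alternative chosen after seeing the data, the ratio was 1.65 (1.46 to 1.86) for the cornified envelope, 1.41 (1.19 to 1.69) for keratins and 0.600 (0.521 to 0.691) for type I interferon genes. Of the calls, 1316 of 1579 higher and 1522 of 1762 lower were also made after that scaling.

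**Figure D4:**
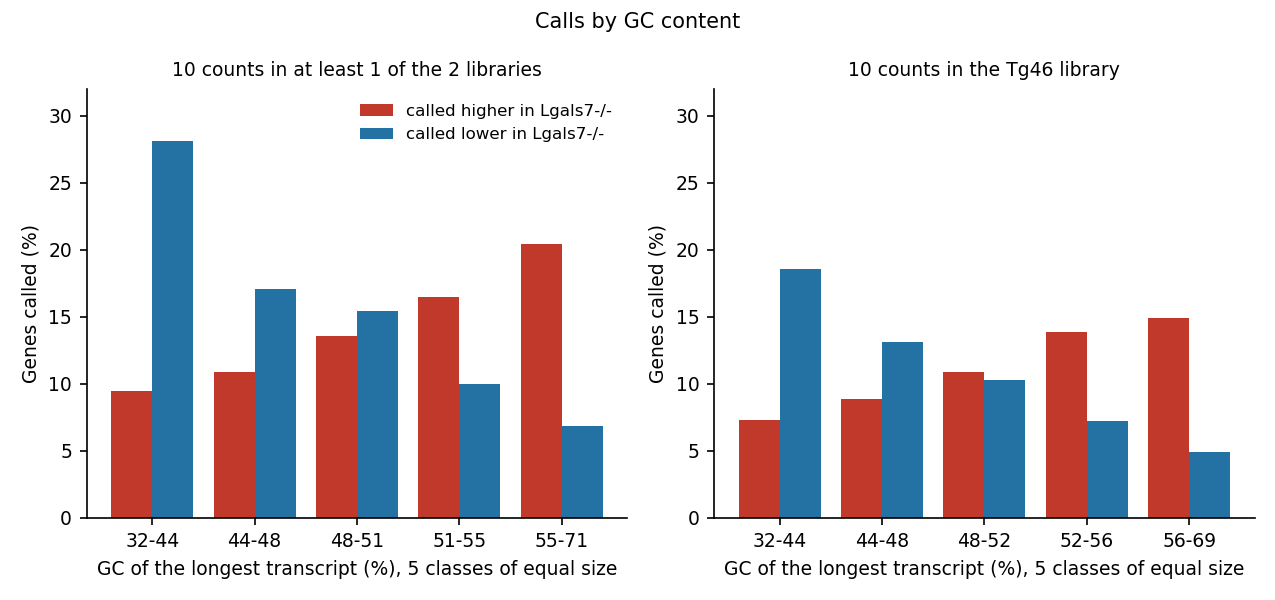
Share of genes called higher (red) and lower (blue) in Lgals7-/- in 5 equal classes of genes ordered by GC content of the longest transcript, with the GC range of each class on the horizontal axis; on the left genes with 10 counts in the wild-type or Lgals7-/- library, on the right genes with 10 counts in Tg46. On the left the share called lower runs from 28.1% in the lowest class to 6.85% in the highest and the share called higher from 9.5% to 20.4%.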

How the data were processed

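RNA was extracted with TRIzol and RNeasy columns and made into libraries with the Illumina Tru RNA Sample Preparation Kit v2, per the labels' protocols. The authors deposited unnormalized whole-number counts of reads for each Entrez gene; the build in the submitters' processing notes is mm10, and the aligner, the counter and any use of strand were not given in the sources used here. RefSeq symbols matched 23968 of 24028 genes, and 21134 matched a GENCODE model (GRCm38), of which 24.8% have an exon across an exon of the other strand. The libraries hold 172011, 312600 and 354499 counts (wild-type, Lgals7-/- and Tg46).

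Genes with 10 counts in the wild-type or Lgals7-/- library were scaled by TMM in edgeR 4.0.16 (factors 0.960 and 1.04), giving a size ratio of 1.97. Ratios have 0.5 counts added to each library. A call needs 2-fold and an exact 95% interval without 1. With 1 library per genotype no count model was fitted. List sums take every member in the table and add no counts. The factors were computed after the filter; those before it were added as an alternative. Alternatives were upper-quartile factors, total counts, DESeq2 1.42.0 size factors, TMM over 3 libraries, other filters, thresholds and added counts, thinning to equal totals, and lists without the top member or without opposite-strand overlaps. GC scaling and 2 further TMM settings were chosen after seeing the data. Intervals and calls were run on simulated libraries with counting error alone and a known size ratio. This checks the calculation and does not cover PCR copies, GC content, scaling or differences between tumours. R 4.3.3, Python 3.11.15, numpy 2.4.6, scipy 1.17.1, pandas 2.3.3 and matplotlib 3.10.9 were used.

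The genes, the 38 lists and the rule for named genes were chosen with earlier results of these data known. The rule took Lgals7, the 12 genes in each direction whose interval lay farthest from 1 (without Gm and Rik symbols and chemosensory receptors), and in each list up to 4 called members in each direction by log2 ratio and the 2 with the most counts. Other names were chosen after their values were seen, and some items are not reported here. GC content had a value for 94.6% of genes compared.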

Additional observations from a re-analysis of the deposited data

How the results depend on the processing

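No paired analysis was possible because a genotype is a single pool. Of the recomputed log2 ratios of named genes, 1308 kept their call or lack of one, 117 lost the call and 15 gained one. Among genes called as reported, 0 reversed direction. Genes not called were not checked for a change of sign, which can occur where the ratio is near 1. Counts of genes called moved by over 1.5 times in these settings. Genes called higher were 20 of 220 (9.09%) with a filter of 100 counts and 935 of 8351 (11.2%) with 10 on average over the 3 libraries. They were 880 of 7730 (11.4%) in thinned libraries and 1043 of 7114 tested (14.7%) among genes with no opposite-strand exon. Of the 11176 genes compared, 2722 (24.4%) were called higher by fold alone and 197 (1.76%) with intervals wholly beyond 2-fold. With 5 counts added to each library, 524 (4.69%) were called higher and 1762 lower, the latter as reported. The size ratio is 1.97, so adding the same 5 counts to each library draws ratios at low counts below 1. Genes called lower were 14 of 220 (6.36%) with a filter of 100 counts and 1080 of 9928 (10.9%) with 10 counts in Tg46. They were 1144 of 8351 (13.7%) with 10 counts on average. Of the 11176 genes compared, 707 (6.33%) were called lower at 4-fold and 462 (4.13%) with intervals wholly beyond 2-fold.

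The sums of the cornified envelope, epidermal keratins, type I interferon and chemosensory receptor lists kept their side of 1 in every setting run, ranging for the first from 1.55 to 2.05 and for interferon from 0.557 to 0.668. In other lists the interval came to hold 1. With DESeq2 size factors these were barrier lipids (1.14) and T lymphocytes (1.201). With total counts they were galectins (0.706), fibroblasts (0.916) and adipocytes (0.814). With upper-quartile factors they were galectins (0.770), fibroblasts (0.999), adipocytes (0.888), muscle (0.905), cell cycle (0.922), clade B serpins (0.826) and heat shock (0.954). With TMM before the filter they were galectins (0.744), fibroblasts (0.965), adipocytes (0.857), serpins (0.797) and heat shock (0.921), and with TMM over 3 libraries or over genes with 10 counts on average, adipocytes (0.777 and 0.788). Without the top member they were barrier lipids (1.07), hair follicle (1.11), stress keratins (1.25), T lymphocytes (1.18), chemokines (1.28), melanocytes (0.855), cell cycle (0.904), proteasome (0.904) and serpins (0.822). Without Lgals9, added after seeing the data, galectins were at 0.896. Without opposite-strand overlaps they were T lymphocytes (1.27), melanocytes (0.811), glycolysis (1.14) and heat shock (0.866). Scaled within the 5 GC classes they were hemidesmosomes (1.11), serpins (0.898) and heat shock (0.887). Another 33 recomputed sums left out 1 only under an alternative. Beyond these constructions the cause was not tested. Depth limits every gene under 10 counts.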

Other observations

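Genes of tissues other than epidermis also held reads. The 1492 chemosensory receptor genes (olfactory, vomeronasal and taste receptors) summed to 3045 counts in the wild-type library, 4560 in Lgals7-/- and 4298 in Tg46, a ratio of 0.759 in Lgals7-/- over wild-type (0.725 to 0.795). Of the 119 compared, 54 were called lower (45.4%, against 15.8% of all genes) and 25 higher (21%, against 14.1%), with a median log2 ratio of -0.98. Of the 30 with 10 counts in Tg46, 6 were called lower and 2 higher, with a median of 0.06. Tas2r102, a bitter taste receptor gene, held 19 counts in the wild-type library, 0 in Lgals7-/- and 1 in Tg46, and Vmn2r74, a vomeronasal receptor gene, held 16, 0 and 2, whereas Olfr324, an olfactory receptor gene, held 0, 21 and 13. Their median GC content was 38.9%, and with libraries scaled within 5 classes of GC content the ratio was 0.944 (0.901 to 0.988).

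Skeletal muscle genes had a ratio of 0.765 (0.683 to 0.856). Neb, nebulin of the thin filament, held 96, 119 and 110 counts, 1.59-fold lower in Lgals7-/- (1.203 to 2.10, overlapping Gm13522), and Ttn, titin, 158, 285 and 242, 1.09-fold lower (0.894 to 1.33, overlapping Gm13938). The 4 defining muscle markers summed to 24 and 42 counts (ratio 0.887, 0.525 to 1.53). Pparg, the regulator of adipocyte and sebocyte differentiation, held 18, 2 and 2 counts and was 14.6-fold lower (4.25 to 158). The 17 adipocyte genes had a ratio of 0.750 (0.577 to 0.9795), or 0.814 with total counts, an interval that held 1. Slc2a4 (24, 15 and 9 counts) was also called lower. The 3 defining adipocyte markers summed to 4 and 13 (ratio 1.65, 0.509 to 6.94). Plin1 held 0, 8 and 10 counts, Adipoq 2, 5 and 6, and Cfd, which went the other way, 2, 0 and 3. The adipocyte receptor gene Adrb3 (0, 13 and 10, overlapping Gm45470) was called higher. Sebaceous gland genes had a ratio of 0.898 (0.770 to 1.05), with the desaturase gene Scd3 (0, 14 and 10) called higher. Kit, the receptor of mast cells and melanocytes, held 1, 28 and 36 and was 9.63-fold higher (2.35 to 580.5). The 14 mast cell and basophil genes had a ratio of 1.43 (0.959 to 2.18), or 1.045 (0.680 to 1.635) without Kit. All 3 compared were called higher (100%, against 14.1% of all genes), and each passed the filter through Lgals7-/- alone. The mast cell protease markers summed to 12 and 11 (ratio 0.465, 0.186 to 1.15). Cpa3 held 9, 2 and 3 counts, Mcpt4 3, 3 and 3, and Cma1, which went the other way, 0, 6 and 4. Among interleukins, Il1rn, the antagonist of the interleukin-1 receptor, held 11, 1 and 1 counts and was 15.1-fold lower (3.15 to 934).

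By position, the X chromosome had the highest share called lower, 25.2% of 361 genes compared, and a median GC content of 44.2%; the other chromosomes ranged from 12% to 18.9%. Within 1 Mb of Lgals7, 34 genes were compared, of which 7 were called higher (20.6%, against 14.1% of all genes) and 2 lower (5.88%, against 15.8%). Their median log2 ratio was 0.32 and their median GC content 55.7%. Genes in the highest of these classes, from 55.2%, had a median of 0.49.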
